A study of Mus musculus with 130 samples.

Results

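Cells of the G0 gate were compared with unsorted cells of the same mouse embryo preparations. The comparison took every library of the raw count table labelled G0 (BR) or unsorted (US), which came to 52 of the 130 deposited samples. These samples were sequencing parts of 10 libraries, 5 a side, and the series held 25 libraries in all. The embryos were FVB/NJ and carried FUCCI, a fluorescent reporter of the cell cycle, in every group, controls included. The E10.5 preparations were WT1 and WT2, the E11.5 preparation was WT3, and the E13.5 preparations were 5 and 8. Nothing in the labels tells if single embryos or pools were used, or what sets the WT titles apart from the numbered ones. Embryonic day and kind of title therefore cannot be told apart between the early set (WT1, WT2 and WT3) and the late set (5 and 8). Per the labels' protocols the tissue was minced and sorted by flow, and the other gates were DR for G1, YE for G1-S and GR for S-G2-M. The series asks how expression differs by cell cycle phase in these embryos, and its title names the E2F factors. The unsorted library is the whole mixture, G0 cells included, and passage through the sorter cannot be told apart from the gate in this comparison.

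FUCCI joins fluorescent proteins to fragments of Cdt1 and Geminin, which are destroyed at opposite parts of the cycle, so that colour follows phase. G0 is the state of cells that have left the cycle. In embryos of these days it is reached early by postmitotic neurons, while most progenitors still divide. Genes for DNA replication are driven by E2F factors late in G1, and genes for mitosis by the MuvB complexes later, often through a promoter element called CHR. In cells that have left the cycle, the pocket proteins Rb1, Rbl1 and Rbl2 hold E2F targets down. Primitive red blood cells of this age are nucleated and rich in haemoglobin messenger RNA.

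Promoters are shown for 3 genes that fell in G0, as examples of the sequences that replication, mitosis and red cell genes carry. Each is the RefSeq promoter (GRCm38.p6), 5′ to 3′ on the gene's strand, from 250 bases before the start to 50 after it. Capitals mark the words searched for on both strands. In the mitotic checkpoint kinase gene Bub1b (chr2:118597961-118598260, plus strand) these are the CHR word TTTGAA, 40 bases after the start, and the CCAAT word, here read as ATTGG 113 bases before it. In Mcm5 (chr8:75109259-75109558, plus strand), a subunit of the replicative helicase, they are overlapping matches to the E2F words, read as TTTCGCGC 153 bases before the start and GCGCCAAA 149 bases before it. In the adult beta globin gene Hbb-bs (chr7:103827879-103828178, minus strand) the capitals are the GATA word AGATAA, 210 bases before the start.
Bub1b: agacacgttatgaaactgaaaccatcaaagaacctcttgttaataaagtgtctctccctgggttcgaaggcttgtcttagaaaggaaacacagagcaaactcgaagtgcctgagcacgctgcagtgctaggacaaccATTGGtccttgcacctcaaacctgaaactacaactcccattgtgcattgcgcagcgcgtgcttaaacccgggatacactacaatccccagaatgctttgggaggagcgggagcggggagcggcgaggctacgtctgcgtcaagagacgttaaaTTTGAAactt
Mcm5: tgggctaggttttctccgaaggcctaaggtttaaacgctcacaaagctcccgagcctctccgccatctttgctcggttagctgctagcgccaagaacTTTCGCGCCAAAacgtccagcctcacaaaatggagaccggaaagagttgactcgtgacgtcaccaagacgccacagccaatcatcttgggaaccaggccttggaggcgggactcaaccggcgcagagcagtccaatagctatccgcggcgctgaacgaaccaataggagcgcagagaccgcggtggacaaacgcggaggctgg
Hbb-bs: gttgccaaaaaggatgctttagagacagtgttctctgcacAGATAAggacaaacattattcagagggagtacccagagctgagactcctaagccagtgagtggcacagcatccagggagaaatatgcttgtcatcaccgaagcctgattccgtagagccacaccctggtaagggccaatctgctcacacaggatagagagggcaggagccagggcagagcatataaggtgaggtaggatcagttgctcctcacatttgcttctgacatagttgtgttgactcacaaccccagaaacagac
Each was the member of its list with the deepest fall among those whose promoter held the words, so the matches shown are no finding. CPM is the count scaled to the depth of its library, with TMM factors. In this paragraph and throughout, values for preparations are listed in the order WT1, WT2, WT3, 5 and 8. Bub1b read 3.06, 8.71, 10.1, 6.48 and 7.01 CPM in G0, against 200, 292, 396, 136 and 143 CPM in unsorted cells. Mcm5 read 47.9, 64.2, 103, 67.7 and 62.7 CPM in G0 against 338, 407, 642, 237 and 245 CPM. Hbb-bs read 0.747, 16.6, 17.7, 212 and 144 CPM in G0 against 298, 155, 178, 7940 and 5950 CPM. All 3 genes were lower in G0 in each preparation.

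The CHR word stood in the promoters of 24 of 32 mitosis genes (75.0%), against 14.4% of all tested genes with a promoter in the table. The CCAAT word stood in 26 of the same 32 (81.2%), against 42.0%. The E2F words TTTCGCGC, TTTGGCGC and TTTCCCGC were searched together. At least 1 of them stood in 9 of 18 licensing genes, in 8 of 27 DNA synthesis genes (29.6%) and in 6 of 14 genes of the E2F family and its partners (42.9%), against 3.68% of tested genes. AGATAA stood in 6 of 15 erythroid genes (40.0%), against 8.13%. Of the genes lower in G0, 5.59% held an E2F word and 16.5% the CHR word. Of the genes higher in G0, 2.23% and 12.6% did. A match is a string of letters and not a binding site. Of the 39 mitosis genes 32 had a promoter in the table, of the 23 licensing genes 18, and of the 21 erythroid genes 15, and no histone gene was matched there.

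The libraries held 19631474 to 27653277 counts in G0 and 26154184 to 48976375 in unsorted cells. Haemoglobin genes took 0.009 to 0.064% of counts in G0 and 1.54 to 3.66% in unsorted cells. Mitochondrially encoded genes took 0.372 to 0.701% in the WT preparations and 1.66 to 2.47% in preparations 5 and 8. Gm26917 and Gm42418, which overlap ribosomal RNA repeats, took 9.47% of the unsorted WT1 library and 1.49 to 5.97% of the other 9. Xist was high in both libraries of preparation 8 (2280 CPM in G0 and 706 in unsorted cells) and at 15.1 CPM or below in both libraries of WT1, WT2 and 5. In WT3 it read 203 CPM in G0 and 43.3 CPM in unsorted cells, and the Y-linked gene Ddx3y read 49.8 and 77.7 CPM there. WT3 was also the one preparation whose G0 library deviated from its group mean most like another preparation's unsorted library, that of WT2.

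Of 21398 genes tested with preparation as a block, 6062 (28.3%) were higher in G0 and 6106 (28.5%) were lower, so 56.9% were called in all. With at least a 2-fold change also required, 4160 were higher and 2911 lower. The test was edgeR's quasi-likelihood test with Benjamini-Hochberg adjusted p under 0.05. A list's count below has to be read against those shares. The median log2 change (G0 minus unsorted) of all genes tested was 0.05. Among the called genes, 11442 had the same sign in all 5 preparations. In bulk samples, fewer cells of a type and less RNA per cell cannot be told apart.

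**Figure D1:**
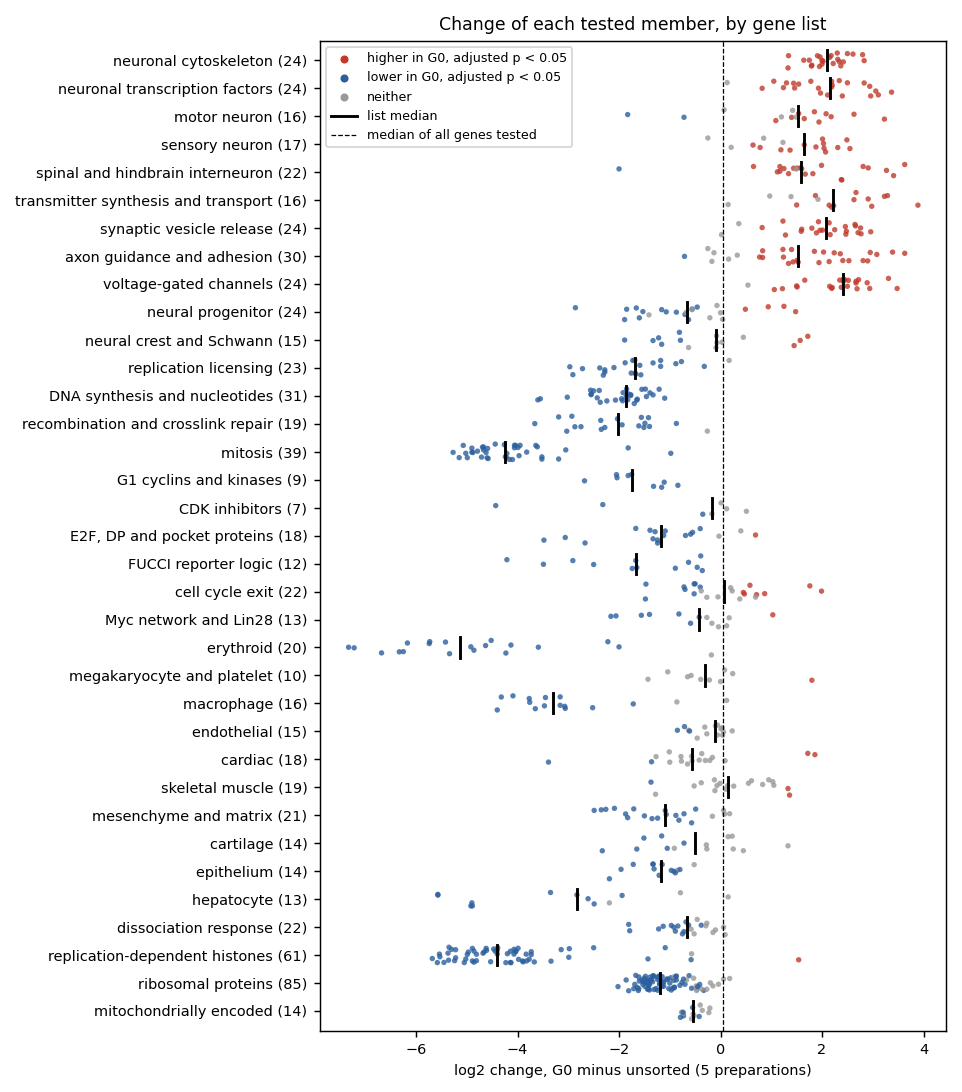
Each point is 1 tested gene, placed by its log2 change (G0 minus unsorted, 5 preparations) in the row of its list, with the number of tested members in brackets. Red and blue mark genes called higher and lower in G0, black bars are list medians and the dashed line is the median of all genes tested, 0.05. Neuronal lists lie to the right, with medians of 1.52 to 2.42, and mitosis, histone and erythroid lists lie to the left, with medians of -4.24, -4.40 and -5.13.

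Genes of postmitotic neurons were higher in the G0 gate. All 24 members of the neuronal cytoskeleton list rose, with a median log2 change of 2.09, and so did 23 of 24 neuronal transcription factors (median 2.15). Dcx, which binds the microtubules of migrating neurons, read 1420, 1040, 978, 962 and 963 CPM in G0 and 164, 106, 73.5, 244 and 265 CPM in unsorted cells. The groups did not overlap, as for 14.2% of all genes tested with G0 above, and the log2 change was 2.80 (SE 0.30, edgeR adjusted p = 0.000154). Map2, a dendritic microtubule protein, read 1470 to 1940 CPM in G0 and 139 to 478 CPM in unsorted cells. The neurofilament gene Ina rose by 2.83 on the log2 scale. The G0 level of Dcx was close to even over the preparations, while its unsorted level was lowest in WT3.

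Neuronal transcription factors that rose most were Myt1l, a repressor of other lineages in neurons (log2 change 3.37, SE 0.34), Onecut2 (3.11, SE 0.50) and Onecut3 (3.06, SE 0.61). Myt1l read 48.0 to 283 CPM in G0 and 1.84 to 45.6 CPM in unsorted cells. Onecut2 read 650, 581, 598, 52.8 and 52.2 CPM in G0 against 56.0, 41.6, 20.9, 15.2 and 19.0 CPM. Onecut2 was thus far lower in both late G0 libraries than in the early ones, and higher in G0 in each preparation.

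Genes that mark kinds of neuron rose as well. Of 22 genes of spinal and hindbrain interneurons, 20 were higher and 1 lower (median 1.59). Pax2, which marks inhibitory interneurons, read 82.4, 51.3, 30.7, 34.7 and 69.6 CPM in G0 and 14, 3.93, 1.39, 5.41 and 4.92 CPM in unsorted cells, a log2 change of 3.41 (SE 0.29). Otp rose by 3.27. The exception was Tal1, which is also a master factor of blood cells, and it fell by 2.0 on the log2 scale (SE 0.21, edgeR adjusted p = 0.000148). Of 16 motor neuron genes 10 rose and 2 fell, and of 17 sensory neuron genes 13 rose and none fell. In preparations 5 and 8 alone, 4 of 15 motor neuron genes were higher and 3 lower. For sensory neuron genes these numbers were 12 and 4 of 17. Of all 20221 genes tested in that fit, 7390 were higher and 7679 lower. Prrxl1 (Drgx), a factor of sensory circuits, rose by 2.31, and Ntrk3, the receptor for neurotrophin-3, rose by 2.55. Over all preparations, the motor neuron genes that fell were Etv4 and Aldh1a2, by 1.83 and 0.72. Both are also active in limb or trunk mesoderm.

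Genes for transmission and excitability were among the highest of all. Slc6a5, the glycine transporter of nerve endings, had the largest log2 change by the naming rule, at 3.89 (SE 0.40, edgeR adjusted p = 0.000126). It read 93.3, 48.5, 29.1, 51.1 and 80.2 CPM in G0, against 9.01, 2.55, 0.346, 6.4 and 6.82 CPM in unsorted cells. Every G0 library was above every unsorted one, as for 14.2% of all genes tested. Gad1, which makes GABA, read 52.9, 29.4, 15.8, 76.3 and 100 CPM in G0 against 6.88, 1.56, 0.658, 14 and 14.2 CPM (log2 change 3.29, SE 0.32). Chat, which makes acetylcholine, read 17.2, 18, 12.5, 0.677 and 0.307 CPM in G0 against 1.49, 0.618, 0.831, 0.197 and 0.321 CPM. It was thus higher in G0 in the early preparations and in preparation 5, at low levels there, and not in preparation 8.

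In all, 12 of 16 transmitter genes rose (median 2.21), 22 of 24 genes of synaptic vesicle release (median 2.08), 23 of 24 voltage-gated channel genes (median 2.42) and 24 of 30 genes of axon guidance and adhesion (median 1.52). None of the first 3 lists had a lower member, and guidance had 1, Sema3a. The calcium channel Cacna1b rose by 3.31. Bsn and Pclo, scaffolds of the presynaptic active zone, rose by 2.76 and 2.96. Robo3, a receptor that lets commissural axons cross the midline, read 1300, 709, 469, 286 and 515 CPM in G0 and 169, 34.2, 11.2, 51.0 and 59.0 CPM in unsorted cells. Other genes among the 12 largest rises were the adhesion genes Nrxn3 (3.57) and Dscam (3.39), the ubiquitin ligase Trim67 (3.43), Adarb2 (3.37), Nyap2 (3.36), the matrix protein Tnr (3.33) and Unc79 (3.33), a part of the sodium leak channel. Unsorted WT3 was the lowest unsorted library for Slc6a5, Gad1 and Cacna1b.

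Genes of dividing neural progenitors went mostly the other way. Of 24, 13 fell and 4 rose, with a median of -0.66. The Notch target Hes5 read 2.62, 2.64, 0.885, 5.37 and 5.68 CPM in G0 against 21.2, 19.7, 21.0, 20.4 and 27.4 CPM, a log2 change of -2.86 (SE 0.35). Hes1 fell by 1.85 and the radial glia gene Fabp7 by 1.89. The 4 that rose included Dll3 (1.48), a Notch ligand family member of cells entering differentiation, Nkx6-1 (1.25), which motor neurons keep, and the neural cadherin Cdh2 (0.94). Of 15 tested genes of neural crest and Schwann cells, 6 fell and 3 rose. Sox10 and Ednrb fell by 1.22 and 1.33. Tfap2a and Tfap2b, which are also made by inhibitory and sensory neurons, rose by 1.72 and 1.57, and the neurotrophin receptor Ngfr rose by 1.45.

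**Figure D2:**
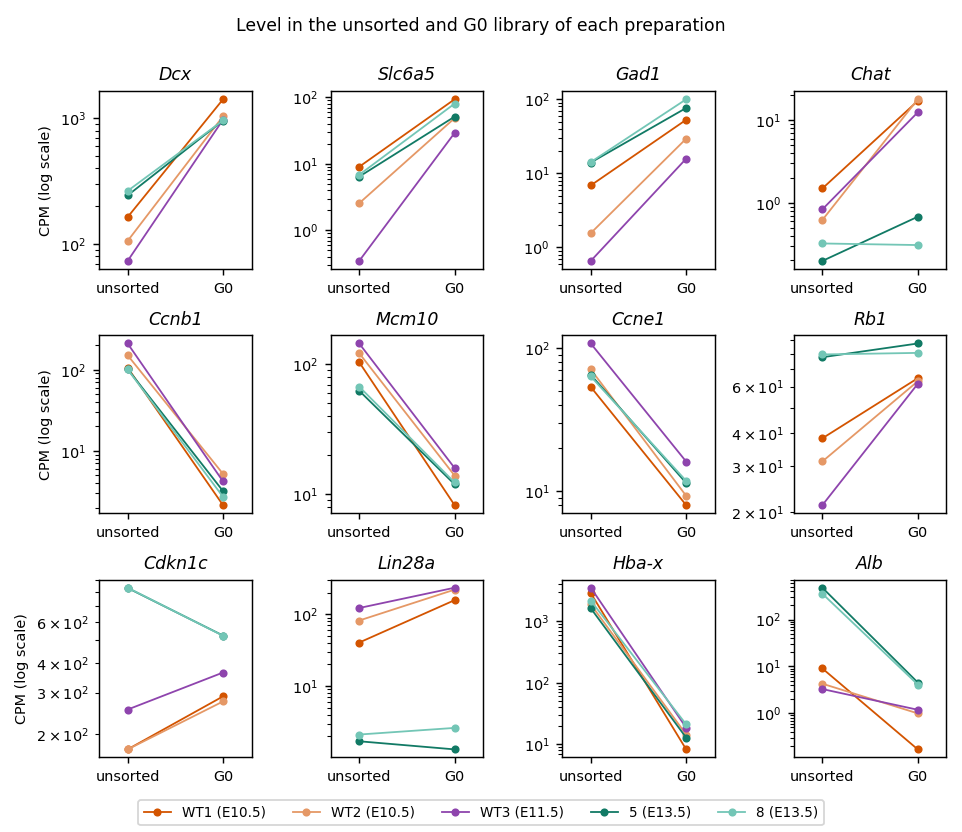
Lines join the unsorted and G0 library of each preparation for 12 genes, in CPM on a log scale, coloured by preparation with its embryonic day. Dcx, Slc6a5 and Gad1 are higher and Ccnb1, Mcm10, Ccne1, Hba-x and Alb lower in G0 in all 5 preparations, while Rb1 is only slightly higher in preparations 5 and 8, Cdkn1c goes in opposite directions in the early and late sets, and Chat and Lin28a are low in both late preparations.

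Genes of DNA replication and mitosis were lower in G0 almost without exception. All 39 mitosis genes fell, with a median of -4.24, as did all 31 genes of DNA synthesis and nucleotide supply (median -1.86), 22 of 23 licensing genes (median -1.69) and 18 of 19 genes of recombination and crosslink repair (median -2.03). Of all genes tested, 28.5% were lower. Ccnb1, the cyclin that drives entry into mitosis, read 2.14, 5.20, 4.20, 3.19 and 2.71 CPM in G0, against 106, 151, 211, 102 and 101 CPM in unsorted cells. Its log2 change was -5.27 (SE 0.17, edgeR adjusted p = 7.55e-07), which is 38.6-fold. Birc5, of the chromosomal passenger complex, had a change of -5.15 and the kinesin Kif2c one of -5.07. Summed over the list, mitosis genes stood at 299 to 492 CPM in G0, against 5497 to 8363 CPM in unsorted cells.

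The lists of DNA synthesis, licensing and recombination genes had smaller median falls than mitosis genes. Rrm2, a subunit of ribonucleotide reductase, read 16, 23.8, 39.9, 18.7 and 16.8 CPM in G0 against 227, 321, 488, 170 and 175 CPM, a log2 change of -3.55 (SE 0.13). The histone chaperone Asf1b fell by 3.60 and thymidine kinase Tk1 by 3.02. The licensing and origin factors Mcm10, Gmnn and Cdc45 fell by 2.97, 2.91 and 2.72, and the Fanconi anaemia genes Fancd2 and Fanci by 3.66 and 3.19. Replication-dependent histone genes, which are expressed in S phase, fell in 59 of 61 cases, with a median (-4.40) below that of the mitosis list. Summed over the list, they stood at 716 to 1151 CPM in G0 and at 13536 to 27018 CPM in unsorted cells. Hist3h2a was the single histone gene that rose, by 1.54, and 33.0% of its exon bases are shared with another gene on the same strand.

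The genes on which the reporter rests were all lower. All 12 members of that list fell (median -1.66). Geminin (Gmnn), whose fragment marks S, G2 and M, read 6.66, 12.3, 14.4, 4.69 and 4.97 CPM in G0 against 57.2, 81.7, 133, 32.2 and 32.4 CPM. Cdt1, whose fragment marks G1, read 19.5, 23.2, 30.7, 22 and 21.8 CPM in G0 against 66.0, 67.8, 77.0, 78.9 and 80.9 CPM, a log2 change of -1.67 (SE 0.12). Messenger RNA counted for the Gmnn and Cdt1 genes was therefore below the unsorted level in G0. The level of the reporter itself was not tested. The groups did not overlap for either gene, as for 16.3% of all genes tested with G0 below. Of the ubiquitin ligase parts that destroy these proteins, Cdc20 fell by 4.21, Fbxo5, an inhibitor of the anaphase-promoting complex, by 3.49, Cks1b by 2.5, Skp2 by 1.74 and Dtl by 1.65. The changes of Cul4b (-0.89), Ddb1 (-0.63), Fzr1 (-0.46), Cul4a (-0.39) and Cdc27 (-0.36) were smaller, and Fzr1 is the activator that the complex uses in G0 and G1.

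Every member of the list of G1 cyclins and kinases fell (9 of 9, median -1.75). Ccne1, the cyclin E that starts S phase, read 7.98, 9.27, 16.1, 11.4 and 11.8 CPM in G0 against 53.6, 71.1, 108, 65.2 and 63.5 CPM (log2 change -2.68, SE 0.12). Ccne2 fell by 2.05 and their partner Cdk2 by 2.04. The D cyclins Ccnd1, Ccnd2 and Ccnd3 fell by 1.82, 1.11 and 1.75, their kinases Cdk4 and Cdk6 by 0.84 and 1.32, and the phosphatase Cdc25a by 1.16. Cdk4 changed least and was still lower in every preparation, at 278 to 347 CPM in G0 and 457 to 829 CPM in unsorted cells.

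The inhibitors of these kinases were not higher as a group. Of 7 tested, none was called higher and 3 were called lower, with a median of -0.17. Cdkn1b (p27), widely used as a mark of cycle exit, read 70.3, 64.3, 77.7, 69.4 and 72.1 CPM in G0 and 75.2, 84.5, 105, 91.8 and 96.6 CPM in unsorted cells, a log2 change of -0.35 (SE 0.10, edgeR adjusted p = 0.0154). That call was lost without preparation WT2, 5 or 8. Cdkn2c (p18), which is E2F-driven in many dividing cells, read 0.238 to 1.06 CPM in G0 and 7.31 to 19.9 CPM in unsorted cells and fell by 4.43, and Cdkn3, which acts in mitosis, fell by 2.32. Cdkn1a (p21) had a log2 change of 0.51 (SE 0.32, adjusted p = 0.199 by edgeR) and Cdkn2b one of -0.17. Cdkn2a did not pass the filter on low counts.

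For Cdkn1c (p57) and Cdkn2d (p19) the sign differed between the sets. Cdkn1c read 289, 275, 365, 524 and 523 CPM in G0 against 172, 172, 254, 835 and 837 CPM in unsorted cells. The change was 0.58 in the WT preparations and -0.65 in preparations 5 and 8, and the late minus early difference was -1.33 (edgeR adjusted p = 0.00597). For Cdkn2d the changes were 0.55 and -0.90, and the difference was -1.55 (edgeR adjusted p = 0.00726). The antisense partners of Cdkn1c cover 30.7% of its exon bases, and whether reads were counted by strand is not given in the sources used here.

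Of the E2F, DP and pocket protein genes, 15 of 18 fell and 1 rose, with a median of -1.18. The activators E2f1, E2f2 and E2f3 fell by 1.12, 3.48 and 1.09, the repressors E2f4, E2f5 and E2f6 by 1.33, 1.24 and 0.59, and the atypical E2f7 and E2f8 by 1.39 and 3.06. E2f2 read 2.51, 4.94, 6.33, 9.19 and 6.35 CPM in G0 against 41.4, 30.7, 34.2, 142 and 127 CPM. Mybl2, the partner that makes MuvB an activator, fell by 2.67, the DP genes Tfdp1 and Tfdp2 by 1.29 and 0.69, and the MuvB subunits Lin54, Lin9 and Lin52 by 1.24, 0.55 and 0.40. Another MuvB subunit, Lin37, had a log2 change of -0.03 (SE 0.18). E2F activators and E2F repressors thus fell together.

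The pocket proteins parted. Rbl1 (p107) fell by 1.67 (SE 0.12), while Rb1 rose by 0.69 (SE 0.22, edgeR adjusted p = 0.024). Rb1 read 64.6, 62.9, 61.5, 87.5 and 80.6 CPM in G0 and 38.2, 31.2, 21.3, 77.6 and 79.5 CPM in unsorted cells. It was higher in each preparation, but the call was lost without WT1, WT2 or WT3, and in preparations 5 and 8 alone the change was 0.12. Rbl2 (p130), the pocket protein of G0, had a log2 change of 0.40 (SE 0.21, adjusted p = 0.136 by edgeR). It was higher in the early preparations, at 15.2 to 19.2 CPM against 7.48 to 15 CPM, and slightly lower in the late ones.

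Of 22 other genes linked to leaving the cycle, 7 rose and 8 fell, with a median of 0.07. Klf7, which neurons use in axon growth, rose by 1.99, and Trp53inp2 and Trp53inp1 by 1.76 and 0.87. Trp53inp1 read 142, 138, 177, 130 and 112 CPM in G0 against 58.5, 65.4, 77.5, 93.7 and 89.4 CPM. The antiproliferative Btg2 fell by 0.72, Gas1, a growth arrest gene of mesenchyme, by 1.47, and Zfp36l1 by 1.48. Other genes cover 55.9% of the exon bases of Zfp36l1 and 39.4% of those of Klf7 on the opposite strand. Members of the list therefore went both ways. The number lower was 4 without WT2 and 5 without preparation 5 or 8.

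Of 13 genes of the Myc network and Lin28, 7 fell and 1 rose. Myc fell by 1.40, Mycn by 0.82 and Max by 0.42, while Mycl (0.12) and Mga (0.17) were not called. Mxd3, which is made in S phase, fell by 2.16, and the chromatin proteins Hmga2 and Hmga1 by 2.06 and 1.56. Of the Igf2bp genes, Igf2bp1 fell by 0.59, and Igf2bp2 (-0.17) and Igf2bp3 (-0.27) were not called. Lin28a, which blocks maturation of let-7 microRNAs, rose by 1.03 (SE 0.29, edgeR adjusted p = 0.0156). It read 157, 220, 234, 1.31 and 2.61 CPM in G0 and 40.3, 81.7, 122, 1.70 and 2.11 CPM in unsorted cells. It was nearly gone by E13.5 in both, and the call was lost without WT1 or WT2. Its relative Lin28b was not called (log2 change -0.04, SE 0.12).

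Red cell genes showed the deepest falls. Of 20 tested erythroid genes 19 fell, with a median of -5.13, and every one of the 12 lowest genes by the naming rule but Hsd3b6 is known from red cells. Hba-x, the embryonic zeta globin, read 8.26, 14.4, 18.6, 12.8 and 21.0 CPM in G0 and 2870, 1880, 3520, 1630 and 2170 CPM in unsorted cells, a log2 change of -7.33 (SE 0.31, edgeR adjusted p = 1.94e-06). Hbb-y and Hbb-bh1, the embryonic beta-like globins, fell by 7.22 and 6.68, and the alpha globin Hba-a1 by 6.25. Some globins, such as Hba-a1 and Hba-a2, are near-identical copies, and the counts of such copies may be split by the alignment. The membrane genes Slc4a1, Rhag and Kel had changes of -6.17, -6.16 and -5.81, and the regulators Hemgn and Klf1 of -6.49 and -5.74. Hsd3b6, a steroid enzyme, fell by 5.85. Summed over the list, erythroid genes stood at 278 to 814 CPM in G0 and at 16557 to 41680 CPM in unsorted cells.

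Markers of other cell types were mostly lower. Of 16 macrophage genes 14 fell (median -3.31). C1qb, a complement subunit, read 0.170 to 1.02 CPM in G0 and 3.85 to 13.8 CPM in unsorted cells, and fell by 4.40. Of 13 hepatocyte genes 10 fell (median -2.83), among them Afp and Apoa2 (both by 5.57) and Alb (by 4.92). Alb read 0.170, 0.996, 1.19, 4.54 and 4.10 CPM in G0 against 9.05, 4.28, 3.29, 477 and 356 CPM. Of 14 epithelial genes 12 fell (median -1.18), with Krt5, Krt14 and Epcam lower by 2.19, 1.96 and 1.72. Of 21 mesenchyme and matrix genes 17 fell (median -1.09), and of 14 cartilage genes 6 fell (median -0.50). Twist1, a factor of mesenchyme, read 5.81, 12.7, 15.4, 41.3 and 36.3 CPM in G0 against 81.7, 111, 140, 87.5 and 89.0 CPM. The shares of these cell types in each library were not tested.

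Muscle, vessel and platelet lists gave few calls over all 5 preparations. Of 18 cardiac genes 2 rose and 2 fell, of 19 skeletal muscle genes 2 rose and 1 fell, of 15 endothelial genes 3 fell, and of 10 megakaryocyte genes 1 rose. Ttn, the giant sarcomere protein, read 900, 2650, 1600, 375 and 283 CPM in G0 against 289, 435, 74.2, 241 and 230 CPM (log2 change 1.86, SE 0.57), and its call was lost without WT1 or WT2. Without WT2 or WT3 no skeletal muscle gene was called higher, 1 was without WT1 and 4 were without preparation 5. Without WT1 or WT2 1 cardiac gene was, and without WT3 4 cardiac genes were called lower (1 without WT2). The calcium channel Ryr2, which neurons make too, rose by 1.72, and the ventricular myosin light chain Myl2 fell by 3.39. The megakaryocyte gene that rose, Gp1bb (1.80), shares 92.9% of its exon bases with another gene on its strand.

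Ribosomal protein genes were lower in 72 of 85 cases and higher in none, with a median of -1.20. Rpsa read 320, 367, 549, 266 and 288 CPM in G0 against 1120, 1150, 2390, 895 and 958 CPM. Of 22 genes of the response to tissue dissociation, 13 fell and none rose (median -0.66), with Hspa1a and Hspa1b lower by 1.81 and 1.79. Both lists also had negative medians in the G1, G1-S and S-G2-M gates against unsorted cells. These were -0.71, -0.45 and -0.42 for ribosomal protein genes, and -0.21, -0.11 and -0.34 for dissociation genes. Of 14 mitochondrially encoded genes 5 fell, but of the 15 tested on leaving out 1 preparation 2 did without WT2, 3 without WT1 or WT3 and 8 without preparation 8, and the list's median was -1.01 in WT1 and 0.16 in preparation 8. The largest of these falls was that of mt-Nd1, at -0.79.

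Several noncoding gene types were higher in G0, and were higher in the other sorted gates too. Of 1558 tested genes of the GENCODE type TEC, which are mostly unspliced transcripts of unsettled status, 1007 were higher in G0 and 19 lower (median 1.48). Of 207 sense intronic genes 130 were higher and none lower (median 1.36), and of 982 antisense genes 286 were higher and 27 lower (median 0.75). Protein-coding genes had 3813 higher and 5152 lower of 15183 (median -0.11), and processed pseudogenes, which copy spliced messages, 199 higher and 744 lower of 1674 (median -0.59). TEC genes took 1.16, 1.09, 0.809, 0.908 and 0.818% of counts in G0 and 0.773, 0.478, 0.130, 0.193 and 0.163% in unsorted cells. The smallest gap was in WT1 and the largest ratio in WT3.

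Protein-coding genes also differed by their length in the genome. Genes that span over 100 kb had a median of 0.49, with 1157 of 2309 higher and 337 lower. Genes under 10 kb had a median of -0.35, with 650 of 3758 higher and 1576 lower. In the other gates TEC genes had medians of 1.43 in G1, 1.13 in G1-S and 1.09 in S-G2-M, each from its own fit against the same 5 unsorted libraries. Sense intronic genes had 1.41, 1.11 and 1.16 there, and antisense genes 0.63, 0.54 and 0.56. All sorted gates thus lay above the unsorted cells for these 3 types. The medians of genes over 100 kb were 0.33, 0.20 and 0.08 in those gates. How far handling of sorted and unsorted cells bears on these values was not tested.

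**Figure D3:**
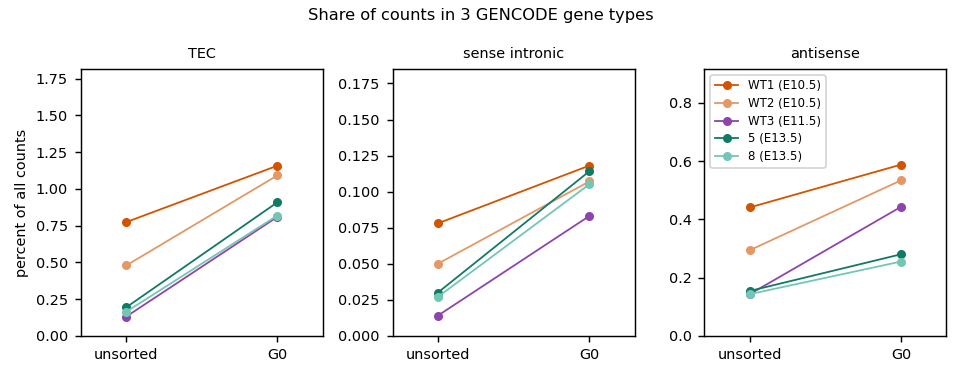
Lines join the unsorted and G0 library of each preparation, with the share of all counts in percent for the GENCODE types TEC, sense intronic and antisense. The share is higher in G0 in each of the 5 preparations for all 3 types, and for TEC the unsorted values of WT3, 5 and 8 lie at 0.130 to 0.193%.

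Each gate was fitted against the same unsorted libraries, so the values share their controls and are given side by side. The neuronal cytoskeleton median was 2.09 in G0, -0.31 in G1, -1.03 in G1-S and -1.50 in S-G2-M, with 24, 0, 0 and 0 of 24 genes higher, against 28.3, 13.7, 13.5 and 8.84% of all genes in the same fits. Other neuronal lists were also higher in G1: 10 of 23 neuronal transcription factors (median 0.65) and 15 of 30 genes of axon guidance and adhesion (median 0.51) were called higher there, and none lower. All 24 cytoskeleton genes had their highest gate level in G0 in every preparation, as did 17 of 24 neuronal transcription factors, 19 of 30 guidance genes, 5 of 16 motor neuron genes and 15.4% of the genes of the table of all 25 libraries. For the mitosis list the medians were -4.24, -3.36, -0.30 and 0.85. Both G0 and G1 were thus far below the unsorted level, and G0 was the lowest gate in every preparation for 30 of 39 genes, against 13.3% of all genes. DNA synthesis medians were -1.86, -0.86, 0.36 and 0.10, and G0 was the lowest gate throughout for 29 of 31 genes.

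The G1 cyclins and kinases had medians of -1.75, -0.41, 0.34 and -0.01, and all 9 had their lowest gate level in G0 in every preparation. Ccnd1 changed by -1.82 in G0 and by 0.00, 0.34 and -0.01 in the other gates, and E2f1 by -1.12 in G0, 0.21, 0.72 and -0.14. Rb1 had its highest gate level in G0 in all 5 preparations, and Cdkn1b had its lowest there in none. For mesenchyme genes the medians were -1.09, 0.19, -0.03 and 0.19. Macrophage genes had -3.31, -1.55, 0.40 and -3.20, and cardiac genes -0.56, -1.3, 0.92 and -2.75, so that for both the G1-S gate held the highest level.

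**Figure D4:**
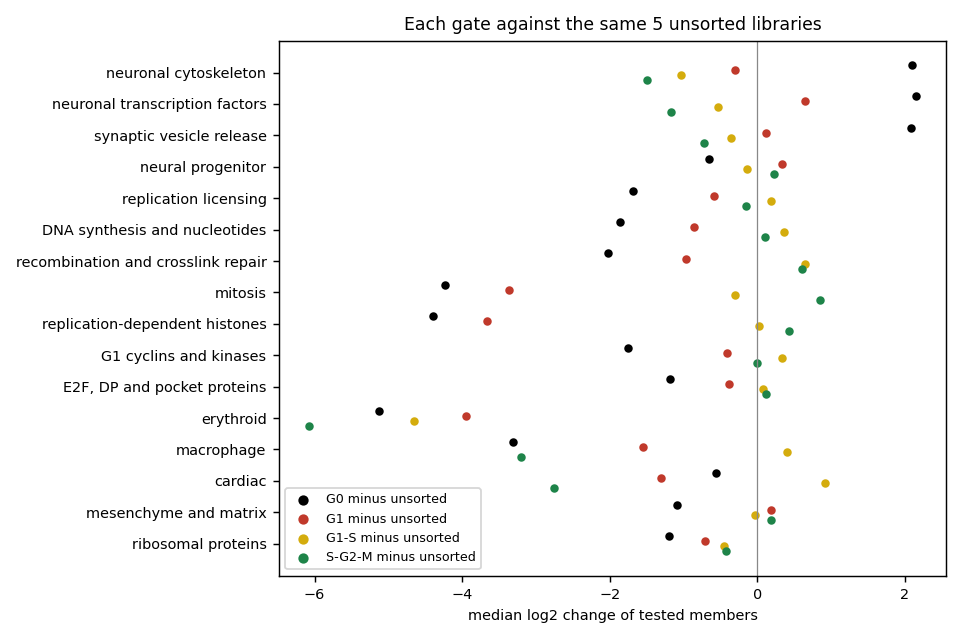
Points are the median log2 change of each list's tested members in a gate against the same 5 unsorted libraries, coloured by gate. G0 alone lies right of 2 for the 3 neuronal lists, lies furthest left for the replication and mitosis lists, and lies between the other gates for erythroid and cardiac genes.

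Of the erythroid genes, 19 of 20 were higher in unsorted cells than in all 4 gates in every preparation, as were 5.08% of the 23506 genes of the table. The erythroid medians were -5.13 in G0, -3.95 in G1, -4.65 in G1-S and -6.07 in S-G2-M. G0 was thus not the gate with the least red cell RNA. Of 86 ribosomal protein genes, 42 also stood higher in unsorted cells than in all gates. Of the genes lower in G0, 18.2% were above all 4 gates in this way, and of the genes higher in G0, 7.74% were below all 4 in unsorted cells. Without WT1 the numbers of genes above and below all gates were 2392 and 1617, against 1194 and 508 with it. Such numbers cannot fall when a preparation is left out, since the order then has to hold in fewer preparations.

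The change between G0 and unsorted cells differed between the early and late sets for 1780 genes (8.32%), 500 (2.34%) with a more positive and 1280 (5.98%) with a more negative change in the late set. These numbers rested on few libraries. Without 1 preparation they ranged from 14 to 2669 genes more positive and from 38 to 2542 more negative, lowest without preparation 5 or 8 and highest without WT3. The 10 genes named below by rule were picked with the changes of both late preparations beyond those of all early ones. That they kept their direction was therefore set by the choice. Hbb-bh1 and Barx1 were not called without preparation 5 (Hbb-bh1 also not without 8).

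Lists of neuronal genes differed in how far their rise depended on the set. In the neuronal cytoskeleton list the median change was 2.46, 2.91 and 2.79 in the WT preparations and 1.3 and 1.36 in preparations 5 and 8, and 21 of 24 genes had a more negative late change. For motor neuron genes the medians were 2.17, 2.57 and 2.63 against 0.46 and 0.22, and 11 of 16 differed. Fewer members were called different among sensory neuron genes (3 of 17), synaptic release genes (6 of 24) and interneuron genes (6 of 22). These counts do not rank the size of the difference. Its median over the members was -1.04, -0.68 and -0.82 in these lists, and -1.23 in the cytoskeleton list. Sensory neuron medians were 1.86, 2.2 and 2.7 in the early and 1.12 and 0.91 in the late preparations. Interneuron medians were 1.97, 1.61 and 1.71 in the early and 1.43 and 1.56 in the late preparations. Slc18a3, which loads acetylcholine into vesicles, read 31.1, 30.6, 33.4, 1.45 and 0.973 CPM in G0 against 4.04, 2.68, 2.04, 0.829 and 0.642 CPM, a difference of -2.77 (edgeR adjusted p = 0.00909). Ngfr read 264, 266, 250, 59.0 and 55.8 CPM in G0 against 53.3, 46.6, 49.8, 59.6 and 56.8 CPM. Its unsorted level was thus steady, and its G0 level fell to it in the late set.

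The list medians also parted for muscle, vessels and platelets. Cardiac medians were 0.07, 0.66 and 0.89 in the early and -2.16 and -2.21 in the late preparations, and 11 of 18 genes had a more negative late change. Skeletal muscle medians were 0.50, 1.21 and 0.95 against -0.86 and -0.81 (12 of 19 genes), endothelial medians 0.60, 0.35 and 0.46 against -1.05 and -1.26 (12 of 15), and megakaryocyte medians 0.22, 1.13 and 1.94 against -3.39 and -2.34 (8 of 10).

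The 5 most negative differences were those of Pf4, a platelet chemokine (-5.58), Apoa1, a liver apolipoprotein (-5.32), Nxpe2 (-5.03), Cnmd, chondromodulin of cartilage and tendon (-4.99), and Mybpc3, a cardiac myosin-binding protein (-4.89). Cnmd read 35.0, 26, 28.5, 14.6 and 12.1 CPM in G0 against 4.97, 2.57, 2.74, 53.0 and 42.1 CPM in unsorted cells. It was higher in G0 in every early preparation and lower in both late ones. Mybpc3 read 18.1, 43.1, 45.2, 0.532 and 1.33 CPM in G0 against 13.7, 28.7, 13.1, 16 and 12.8 CPM. Pf4 read 4.86, 9.83, 32.2, 0.290 and 1.23 CPM in G0 against 8.24, 5.33, 16.4, 25.2 and 26.7 CPM.

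Mesenchymal factors differed in the opposite direction. The mesenchyme and matrix list had medians of -1.90, -1.55 and -1.42 in the early and -0.30 and -0.52 in the late preparations. Of its 21 genes, 10 had a more positive late change, against 1 more negative. Cartilage genes did not share this direction, with medians of -0.61, -0.2 and 0.32 in the early and -1.27 and -1.25 in the late preparations. Of 14 cartilage genes 7 had a more negative late change, against 1 more positive. The 5 most positive differences by the naming rule were those of Dmrt2 (3.46), Barx1 (3.24), Pax7 (3.22), Meox1 (3.12) and Hbb-bh1 (3.06). Dmrt2, Pax7 and Meox1 are factors of somites and their muscle and dermal derivatives, and Barx1 is one of facial and stomach mesenchyme. Dmrt2 read 0.883, 0.910, 1.11, 10.2 and 8.09 CPM in G0 and 15.9, 20.4, 21.8, 16.7 and 16.1 CPM in unsorted cells. Pax7 read 3.47, 2.60, 3.14, 18 and 19.1 CPM in G0 against 23.1, 17.5, 18.7, 13.2 and 12.4 CPM. It was thus lower in G0 in the early preparations and higher in the late ones, with changes of -2.75 and 0.56.

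For mitosis genes the sets were closer. The mitosis medians were -4.65, -4.14, -4.26, -4.12 and -4.20, and 3 of 39 genes had a more positive and 1 a more negative late change. DNA synthesis genes fell less in the late set, with medians of -2.26, -2.14, -2.24, -1.42 and -1.42 and 13 of 31 genes differing. Licensing medians were -1.76, -1.77, -2.04, -1.37 and -1.65, with a more positive late change in 4 of 23 genes and a more negative one in 0. In the G1 list, Cdk2 (1.21) and Cdc25a (0.68) had more positive late changes.

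**Figure D5:**
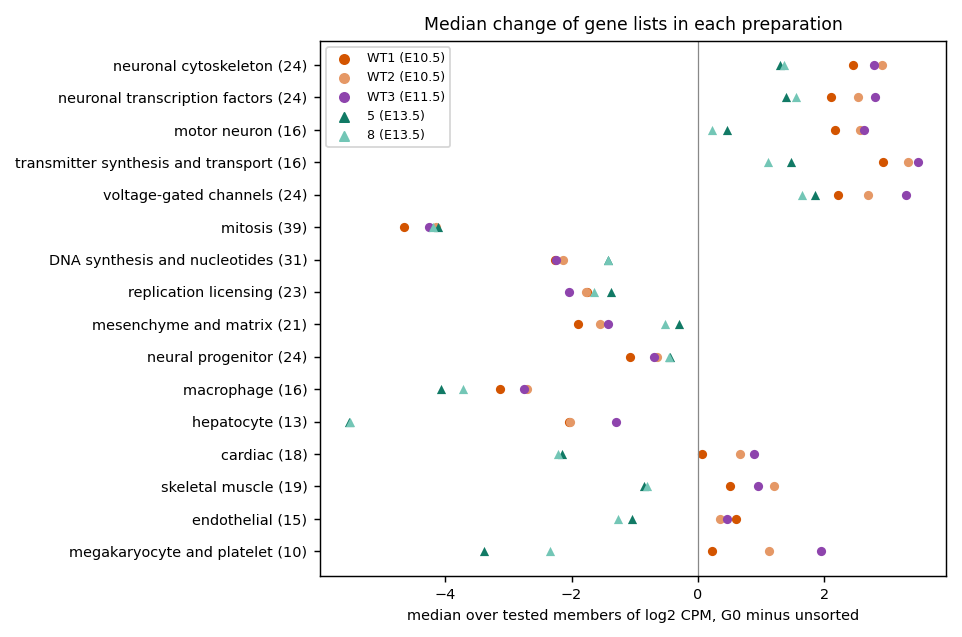
Points are the median, over a list's tested members, of the log2 difference in CPM between the G0 and unsorted library of 1 preparation, with circles for the early and triangles for the late set (some symbols overlap). The 2 late preparations lie left of the 3 early ones for neuronal, hepatocyte, cardiac, skeletal muscle, endothelial and megakaryocyte lists, right of them for mesenchyme and DNA synthesis genes, and close to them for mitosis.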

How the data were processed

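RNA sequencing counts per gene were read from the table that the authors deposited, with 52550 genes in 130 columns, 1 for each sequencing part of a library. Per the submitters' processing notes, STAR 2.5.3, HTSeq 0.8.0 and the build mm10 were used. For the annotation and strand setting, the sources used here say nothing. Parts of a library were summed, after which totals ran from 19631474 to 48976375 counts. Parts differed by a dispersion of 1.09 to 1.23 times counting noise.

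G0 was compared with unsorted cells by edgeR 4.0.16 (R 4.3.3), with TMM factors, the robust quasi-likelihood test, preparation as a block and filterByExpr (minimum count 10, total 15). Genes were called at a Benjamini-Hochberg adjusted p under 0.05 over all genes tested. CPM values are counts scaled to the library total times its TMM factor. The p-values rest on how far the paired difference between G0 and unsorted cells varied from preparation to preparation. What a preparation is biologically, the labels do not give. Preparations are paired by the name in the sample titles. The deviations of paired libraries from their group means correlated at r = 0.56 to 0.78 across 21398 genes, which are not independent. Those deviations include differences between days. Within a day, the difference between preparations correlated less between G0 and unsorted cells, at r = 0.349 for WT1 minus WT2 and 0.095 for 5 minus 8. The late minus early difference was an interaction term, and the other gates were fitted in the same way against the unsorted libraries.

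The members and lists were chosen with earlier results of these data known. Named genes were the 12 highest and 12 lowest called changes that went 1 way in all 5 preparations (mean log2 CPM 3 or above), without predicted, pseudo-, histone and small RNA genes. To these were added up to 3 called genes each way of each list, whatever their level or their agreement between preparations. All members of the CDK inhibitor, G1, E2F, FUCCI and Myc lists were added too. So were 5 called day differences each way, with the same limits on level and gene type. For these, the changes of both late preparations had to lie beyond those of all early ones. Some genes in the text fall outside this rule and were chosen after their values were seen. Some genes that the rule names are not reported here. Drgx and Snorc were matched by synonym. Tph2, Tyrp1, Cdkn2a, Tnnc2, Snorc, Ovol1, Apoa4, Apoc2, Apoh and Ahsg were not tested. Gene types came from GENCODE M21 (52403 genes matched). Scripts were tested on simulated data. Alternatives were RLE factors, DESeq2 1.42.0, other filters and fits, and leaving out each preparation.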

Additional observations from a re-analysis of the deposited data

Results flagged for a closer look

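In a group of 5 preparations, a value was listed when its gap to the nearest other exceeded Dixon's 95% limit (0.71 of the group's range). Chance passes that limit in about 1 group in 20, and 181 genes were named by rule. Values in the list below can therefore be chance. In WT1 the log2 change between G0 and unsorted cells stood apart for Hbb-y (-8.62, against -7.03 to -6.67 elsewhere), Hba-a1 (-8.69, against -5.91 to -5.69 elsewhere), Kif2c (-6.05, against -5.01 to -4.62 elsewhere), E2f8 (-4.49, against -3.05 to -2.47 elsewhere), Mybl2 (-3.84, against -2.54 to -2.16 elsewhere), Ccnd3 (-2.40, against -1.67 to -1.50 elsewhere), Cdkn1b (-0.10, against -0.43 to -0.39 elsewhere). In WT2 the log2 change between G0 and unsorted cells stood apart for Tnni2 (-0.56, against -1.65 to -1.44 elsewhere). In WT3 the log2 change between G0 and unsorted cells stood apart for Rplp1 (-2.32, against -1.81 to -1.68 elsewhere), Zfp36 (-0.08, against -1.54 to -1.39 elsewhere), Aldh1a2 (-1.53, against -0.70 to -0.39 elsewhere). The G0 library of WT1 was larger than the other G0 libraries, at 27653277 counts against 19631474 to 21356325. Gm26917 and Gm42418 took 9.469% of the unsorted WT1 library, against 1.493 to 2.898% of the other unsorted libraries.

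For the genes below, the change between G0 and unsorted cells differed between the early and the late set by the interaction term (edgeR, adjusted p under 0.05), given as the late minus early difference on the log2 scale. It was more positive in the late set for Dmrt2 (3.46), Barx1 (3.24), Pax7 (3.22), Meox1 (3.12), Hbb-bh1 (3.06), Meox2 (2.76), Twist1 (2.17), Hmga2 (1.62), Hemgn (1.58). Smaller positive differences were those of Fabp7 (1.54), Zfp36l1 (1.32), Gas1 (1.28), Cdk2 (1.21), Cdc45 (1.03), Sema3a (0.95), Mcm10 (0.90), Cdc25a (0.68). It was more negative for Pf4 (-5.58), Apoa1 (-5.32), Nxpe2 (-5.03), Cnmd (-4.99), Mybpc3 (-4.89), Alb (-3.78), Apoa2 (-3.63), Chat (-3.22), Onecut3 (-2.81), Slc18a3 (-2.77), Myh3 (-2.62), Onecut2 (-2.42). Further negative differences were those of Ngfr (-2.40), Matn1 (-2.38), Tnr (-2.17), Cdkn3 (-2.11), Afp (-1.91), Mxd3 (-1.90), Lhx4 (-1.77), Rab3c (-1.61), Cdkn2d (-1.55), Nyap2 (-1.55), Ina (-1.53), Dcx (-1.46). The smallest negative ones were those of Nkx6-1 (-1.46), Map2 (-1.44), Myt1l (-1.42), Gp1bb (-1.35), Cdkn1c (-1.33), Rb1 (-1.0), Tal1 (-0.99), Tfdp2 (-0.86), Trp53inp1 (-0.78), Btg2 (-0.70). Day and kind of title cannot be told apart here.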

How the results depend on the processing

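Over 191 gene results (named genes and day differences), 2599 values were recomputed. Of these, 2501 kept direction and side of the threshold, 70 lost and 21 gained a call, and 7 reversed. With preparations 5 and 8 only, the change was 0.56 for Pax7, 0.01 for mt-Nd2, -0.90 for Cdkn2d, -0.65 for Cdkn1c, -1.80 for Cnmd and -0.21 for Myh3. With the WT-titled preparations only, it was 0.85 for Mybpc3. The cause was not tested. With at least a 2-fold change required, 4160 genes were higher and 2911 lower in G0. Without the replicate block, 6644 genes were higher and 6500 lower in G0, and the day difference gave 168 more positive and 529 more negative genes. With E11.5 on its own the day difference gave 2645 and 2538 genes, and without a filter on low counts 1455 more positive genes. Leaving out 1 preparation gave 14 (without 5) to 2669 (without WT3) more positive and 38 to 2542 more negative genes. It gave 849 and 2146 without WT1, 53 and 177 without WT2, and 26 and 70 without 8. Genes with the unsorted level above all 4 gates came to 1243 to 2392 on leaving out 1 preparation. Those below came to 543 to 1617, and both were highest without WT1. These numbers could only stay or rise, since the order then had to hold in fewer preparations. The size of day difference that 5 preparations can detect was not tested.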
